A study of Mus musculus with 39 samples.

Results

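Cadherins and protocadherins, the calcium-dependent adhesion molecules of the cell surface, were followed here across sensory neurons of the mouse lumbar dorsal root ganglia (DRG). Members were all probe sets annotated to 1 gene whose symbol was Cdh followed by a number or began with Pcdh. This rule took 101 of 45037 probe sets and 56 of 18193 genes. The 56 genes fell into 5 type I classical cadherins, 11 type II classical cadherins, 5 other cadherins, 5 delta-1 protocadherins, 5 delta-2 protocadherins, 2 other non-clustered protocadherins and 23 clustered protocadherins (22 Pcdhb genes and Pcdhgc4). A gene with several probe sets was counted by the one that was brightest on average within each of the 3 sets of arrays described next, and 27 of the 56 genes had more than 1, with at most 6.

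The study asked how neurotrophin 3 (NT3), the ligand of the receptor TrkC, shapes gene expression in proprioceptors, the sensory neurons that innervate muscle. RNA was hybridised to 39 Affymetrix mouse arrays. On the day of birth (P0), cells of DRG pooled from L1 to L6 were sorted by a TrkC-GFP transgene into GFPon and GFPoff cells from 4 genotypes with 2 samples of each sort: NT3-/-Bax-/-, which lack NT3 and the pro-apoptotic Bax, so that neurons deprived of NT3 survive, Bax-/-, mlcNT3, in which NT3 is overexpressed in muscle, and WT. GFPon and GFPoff cells were also sorted from WT L5 DRG (3 samples each) and WT L1 DRG (2 and 3 samples), and whole adult WT DRG were taken at L5 and L1 from mice with 5 weeks of a voluntary running wheel or with none (3 samples each). All newborn samples carried the TrkC-GFP transgene on a mixed 129/C57Bl6 background, the label given to the adults too. The transgene marked only part of the TrkC-expressing neurons, and GFPoff cells were everything else that passed the sort, glia and vessel cells included. Nothing in the labels said that 2 samples of a group came from separate animals, so p-values measure the spread between these samples, and 2 or 3 arrays a group limit the precision.

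Cadherins bind the same or a related cadherin on the facing cell. Classical cadherins do so through an outermost repeat that differs between type I and type II, and their cytoplasmic tails hold catenins that join them to actin. Delta protocadherins have more extracellular repeats than classical cadherins, and those of the delta-2 group fewer than those of the delta-1 group, and they signal to the cytoskeleton without catenins. Clustered protocadherins sit in tandem arrays from which single neurons express different subsets, and are known for letting a neuron tell its own branches from those of others. In the spinal cord, cadherins sort motor neurons into pools, and type II cadherins and delta-2 protocadherins mark such pools and sensory subsets.

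The sorted populations were checked against markers of the cell types they could hold. Proprioceptor markers (Pvalb, Runx3, Ntrk3 and 2 others) summed to 13100 to 14100 intensity units in WT GFPon cells, against 326 to 354 in WT GFPoff cells, and the sum of 3 nociceptor markers was 102 to 157 in WT GFPon cells and 4910 to 4970 in WT GFPoff cells. The NT3-/-Bax-/- GFPoff cells stood apart. The 7 fibroblast and meninges markers summed to 32400 to 46200 in NT3-/-Bax-/- GFPoff cells, against 2480 to 4020 in Bax-/- GFPoff cells. The 8 endothelial markers summed to 2680 to 3190 there, against 623 to 682 in Bax-/- GFPoff cells, and the 8 glial markers to 24900 to 28900, against 12900 to 13100. The 6 macrophage markers summed to 13218 in replicate 1 and 396 in replicate 2 of the NT3-/-Bax-/- GFPoff cells, against 255 and 1267 in Bax-/- GFPoff cells, so the 2 NT3-/-Bax-/- arrays differed widely from each other in them. Without that replicate 1, 18 members in place of 14 were called between NT3-/-Bax-/- and Bax-/- GFPoff cells, and 14 in place of 8 in the interaction of genotype and sort, 2 results described further on. In cell populations such as these, fewer cells of a type and less RNA per cell cannot be told apart. The genes deleted or overexpressed in these mice (Ntf3 and Bax) were not analysed here, as no probe set carried either as its single gene.

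In newborn WT GFPon cells, 7 of the 12 non-clustered protocadherins and 3 of the 11 type II cadherins were called higher than in GFPoff cells, all of them by over 1 log2 unit, and 1 of each was called lower. Differences are on the log2 scale, GFPon minus GFPoff, and a gene was called at an adjusted p under 0.05 in limma over all 45037 probe sets. In WT, 11 of 56 genes were called higher and 2 lower, while 6.77% of all 18193 genes were called higher and 5.16% lower. Delta-1 protocadherins had a median difference of 1.64 (3 of 5 higher), delta-2 protocadherins 1.72 (4 of 5 higher), type II cadherins 0.35 (3 of 11 higher, 1 lower), type I cadherins -0.38 (0 of 5 called) and clustered protocadherins 0.05 (0 of 23 called), against -0.06 over all genes. In Bax-/- cells 11 members were called higher and 4 lower (5.32% and 5.06% of all genes), in mlcNT3 cells 9 and 7 (5.41% and 8.09%), and in NT3-/-Bax-/- cells 15 and 11 (12.4% and 11.7%). In the separate L5 cells 13 were higher and 9 lower (13.1% and 13% of all genes), and in L1 cells 12 and 9 (11.9% and 11.8%). Pcdh7, Pcdh8, Pcdh9, Pcdh11x, Cdh7, Cdh13 and Cdh22 were called higher in GFPon cells in all 6 comparisons, Cdh11 and Pcdh12 were called lower in all 6, and 20 of the 56 genes were called in none. The share of all genes called in all 6 or in none was not counted, so these counts are a description. Of the 56 genes, 35 reached a mean log2 level of 7 in at least 1 newborn pooled group, 34 in an L5 or L1 group and 27 in an adult group.

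**Figure D1:**
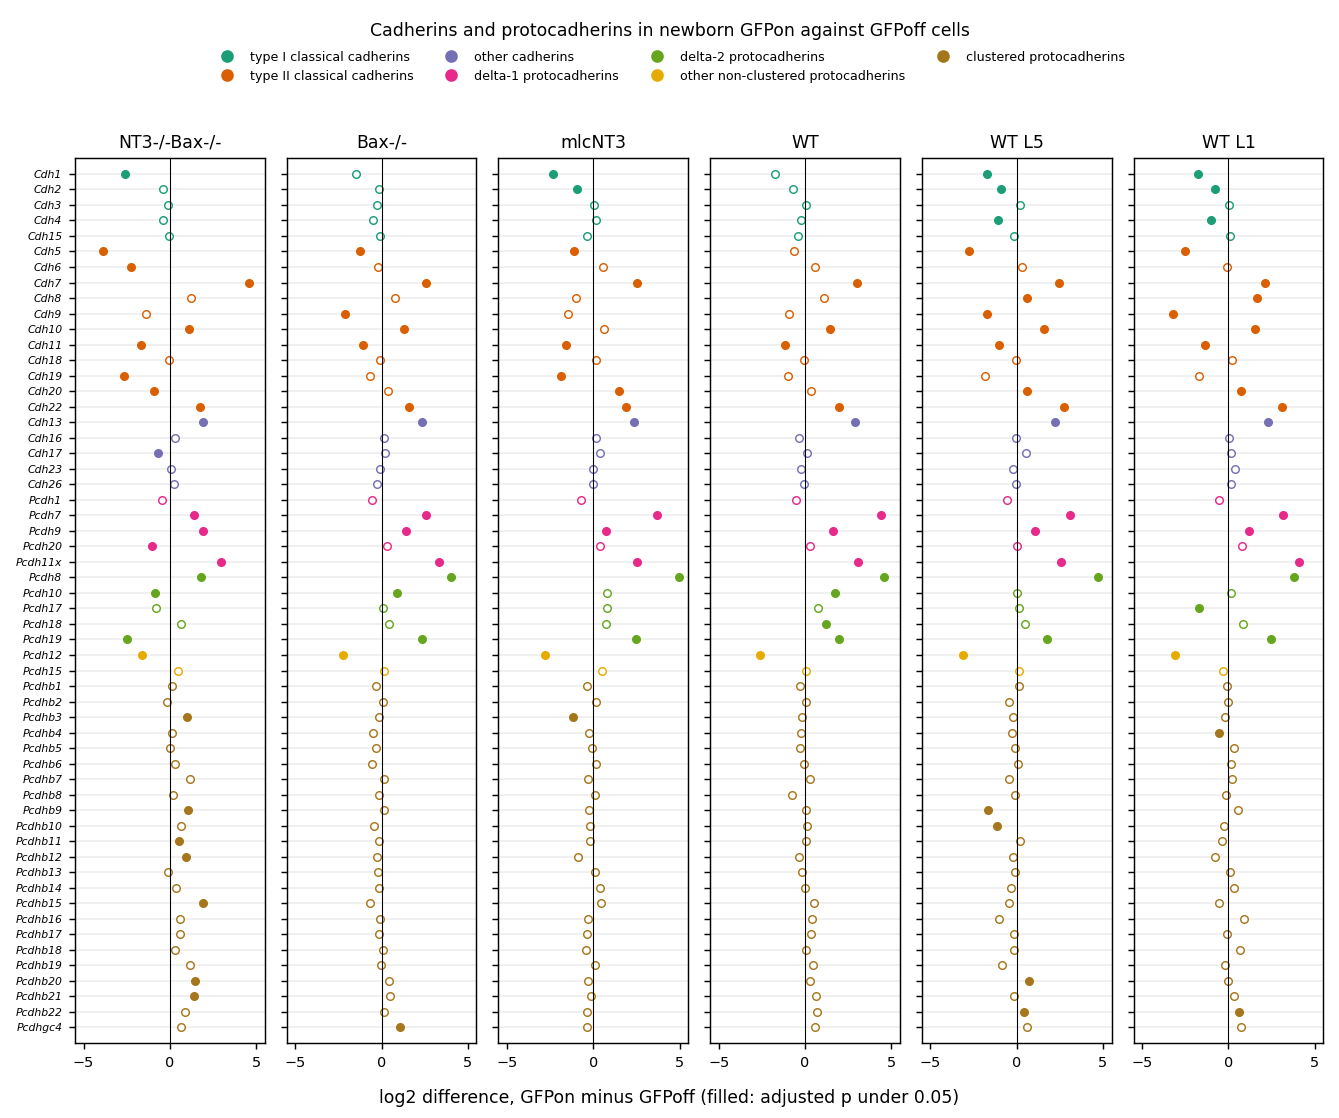
Log2 difference in RMA intensity, GFPon minus GFPoff, of all 56 genes (rows, coloured by subfamily) in 6 newborn comparisons (columns), with filled points for adjusted p under 0.05. Pcdh19 and Pcdh10 lie to the left of 0 in NT3-/-Bax-/- (-2.46 and -0.87) and at or to the right of 0 elsewhere, and 7 clustered genes are filled to the right of 0 in NT3-/-Bax-/-, against 0 in WT.

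The delta-2 protocadherin Pcdh8 had the widest difference between sorts of all members in WT, Bax-/-, mlcNT3 and L5 cells. In NT3-/-Bax-/- cells the widest was that of Cdh7 (4.58), and in L1 cells that of the delta-1 member Pcdh11x (4.07). Pcdh8, also known as arcadlin or paraxial protocadherin, measured 11.84 and 11.95 in WT GFPon cells, against 7.58 and 7.09 in WT GFPoff cells, a difference of 4.56 ± 0.59 (SE, n = 2 each, limma adjusted p = 0.000345). The same direction was measured in Bax-/- (4.04, adjusted p = 0.000962), mlcNT3 (4.97, adjusted p = 0.00019), L5 (4.68, adjusted p = 1.78e-05) and L1 cells (3.81, adjusted p = 0.000214). In NT3-/-Bax-/- the gap was 1.83 ± 0.59 (adjusted p = 0.0473), with 12.66 and 12.91 in GFPon cells and 9.88 and 12.03 in GFPoff cells, so the higher GFPoff array came within 1 log2 unit of the GFPon arrays. That call ended without replicate 1 of the GFPoff cells (0.75, adjusted p = 0.384), without replicate 1 (1.95, adjusted p = 0.105) or 2 (1.71, adjusted p = 0.157) of the GFPon cells, and after quantile normalization (adjusted p = 0.056).

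Pcdh19, the X-linked gene whose mutations cause an epilepsy seen mainly in females, was higher in GFPon cells wherever NT3 was present and lower where it was absent. Its levels were 10.77 and 10.62 in Bax-/- GFPon cells against 8.32 and 8.41 in GFPoff cells (2.33, limma adjusted p = 7.49e-06). They were 11.08 and 10.75 in mlcNT3 GFPon cells against 8.42 and 8.41 in GFPoff cells (2.50, adjusted p = 2.88e-06), and 10.94 and 11.16 in WT GFPon cells against 8.95 and 9.24 in GFPoff cells (1.95 ± 0.16, adjusted p = 1.51e-05). In NT3-/-Bax-/- the order was turned: 5.61 and 5.68 in GFPon cells lay below 8.07 and 8.13 in GFPoff cells (-2.46 ± 0.16, adjusted p = 1.88e-06). Those 2 GFPon arrays were the lowest of all 16 pooled newborn arrays, and the 6 GFPon arrays of the other genotypes were the highest.

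Pcdh10, or OL-protocadherin, which binds the WAVE complex of actin regulators, had the same pattern at a smaller size. It measured 8.52 and 7.95 in NT3-/-Bax-/- GFPon cells against 9.12 and 9.09 in GFPoff cells (-0.87 ± 0.23, limma adjusted p = 0.0185), and 10.45 and 10.61 in WT GFPon cells against 8.56 and 9.05 in GFPoff cells (1.72 ± 0.23, adjusted p = 0.000414). Bax-/- GFPon cells had 9.98 and 9.75, against 8.80 and 9.16 in GFPoff cells (0.88, adjusted p = 0.0336), and mlcNT3 GFPon cells 10.25 and 9.94, against 9.27 and 9.36, which was not called. The NT3-/-Bax-/- call ended without replicate 1 (-0.85, adjusted p = 0.0698) or 2 (-0.88, adjusted p = 0.0522) of the GFPoff or replicate 2 of the GFPon cells (-0.58, adjusted p = 0.147). The Bax-/- call ended without replicate 1 (0.70, adjusted p = 0.251) or 2 (1.07, adjusted p = 0.056) of the GFPoff cells or replicate 1 (0.77, adjusted p = 0.165) or 2 (0.99, adjusted p = 0.0529) of the GFPon cells, and with the median over its 6 probe sets (0.078, adjusted p = 0.913). Its brightest probe set in the L5 and L1 arrays was another one and was called in neither (0.04 at L5 and 0.17 at L1), while the probe set used for the pooled cells was called in both (1.22, adjusted p = 0.000468, and 1.03, adjusted p = 0.00339).

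The promoters of these 3 genes are shown because Pcdh19, Pcdh10 and Pcdh8 carried the widest changes among delta-2 members between sorts and genotypes. Each runs from 250 bases before to 50 bases after the annotated start in RefSeq (GRCm38.p6), on the strand of the gene, at chrX:133688944-133689243 (minus) for Pcdh19, chr3:45378148-45378447 (plus) for Pcdh10 and chr14:79771263-79771562 (minus) for Pcdh8. Capitals mark CCAAT, the CCAAT box, or ATTGG, its reverse complement.
Pcdh19: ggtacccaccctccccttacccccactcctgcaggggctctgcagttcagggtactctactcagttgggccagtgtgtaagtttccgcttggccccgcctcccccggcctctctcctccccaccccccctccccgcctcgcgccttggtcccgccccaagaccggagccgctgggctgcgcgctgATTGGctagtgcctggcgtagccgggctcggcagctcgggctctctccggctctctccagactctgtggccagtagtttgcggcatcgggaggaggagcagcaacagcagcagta
Pcdh10: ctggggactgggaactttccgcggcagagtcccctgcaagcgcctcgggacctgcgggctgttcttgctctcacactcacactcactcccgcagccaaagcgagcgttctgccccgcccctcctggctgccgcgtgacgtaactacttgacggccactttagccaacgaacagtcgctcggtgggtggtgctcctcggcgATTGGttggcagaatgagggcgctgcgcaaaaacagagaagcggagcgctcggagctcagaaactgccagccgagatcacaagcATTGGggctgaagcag
Pcdh8: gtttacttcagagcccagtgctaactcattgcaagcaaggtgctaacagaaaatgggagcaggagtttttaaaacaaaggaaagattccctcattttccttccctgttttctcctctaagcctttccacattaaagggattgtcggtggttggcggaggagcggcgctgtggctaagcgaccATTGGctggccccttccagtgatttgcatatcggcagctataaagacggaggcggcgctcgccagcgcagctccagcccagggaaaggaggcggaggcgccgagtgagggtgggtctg
The matched letters began 65 bases before the start in Pcdh19, 50 in Pcdh10 and 68 in Pcdh8, and Pcdh10 had another match 34 bases after its start. The table held 23 promoters of 20 member genes, and CCAAT on either strand was in 17 of the 23 (15 genes), against 37.4% of 32851 promoters of the same length. This motif was chosen after the 3 sequences had been read, so its share is a description. A cyclic AMP response element (TGACGTNA, either strand, no overlap with the CCAAT letters) was in the Pcdh10 promoter alone among the 23 and in 2.93% of all.

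Pcdh17 and Pcdh18, the other delta-2 members, differed less between sorts. Pcdh18 measured 7.45 and 7.60 in WT GFPon cells against 5.90 and 6.67 in WT GFPoff cells (1.24 ± 0.32, limma adjusted p = 0.0294). That call ended without replicate 1 of the GFPoff cells (0.86, adjusted p = 0.274) or replicate 1 (1.32, adjusted p = 0.117) or 2 (1.17, adjusted p = 0.174) of the GFPon cells, and with the median over its probe sets (0.43, adjusted p = 0.278), and Pcdh18 was called in no other comparison of sorts. Pcdh17 was called at L1 alone, where it was lower in GFPon cells (-1.69 ± 0.24, adjusted p = 0.000437).

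Of the delta-1 protocadherins, Pcdh7, Pcdh9 and Pcdh11x were higher in GFPon cells of every genotype and level, while Pcdh1 was called in none. Pcdh7, known as NF-protocadherin from the frog, measured 9.41 and 8.96 in WT GFPon cells against 4.83 and 4.69 in WT GFPoff cells, a difference of 4.43 ± 0.32 (limma adjusted p = 6.39e-06). In NT3-/-Bax-/- the Pcdh7 difference was 1.39 (adjusted p = 0.00933), with GFPon cells at 9.40 and 10.22 and GFPoff cells at 8.22 and 8.63. Without replicate 1 of those GFPoff cells or replicate 2 of the GFPon cells it was 1.18 (adjusted p = 0.0648) and 0.98 (adjusted p = 0.0843). Pcdh11x, the X-linked delta-1 member, measured 11.74 and 11.81 in WT GFPon cells against 8.63 and 8.78 in WT GFPoff cells (3.07 ± 0.44, adjusted p = 0.000739), and its difference was between 2.51 and 4.07 in the 6 comparisons. Pcdh9 was bright in both sorts, at 11.97 and 11.70 in WT GFPon cells and 10.14 and 10.26 in WT GFPoff cells (1.64 ± 0.21, adjusted p = 0.000308). Its narrowest gap was that of mlcNT3 cells (0.77, adjusted p = 0.0356), lost without replicate 1 (0.62, adjusted p = 0.263) or 2 (0.91, adjusted p = 0.0724) of the GFPoff or replicate 1 of the GFPon cells (0.51, adjusted p = 0.243).

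**Figure D2:**
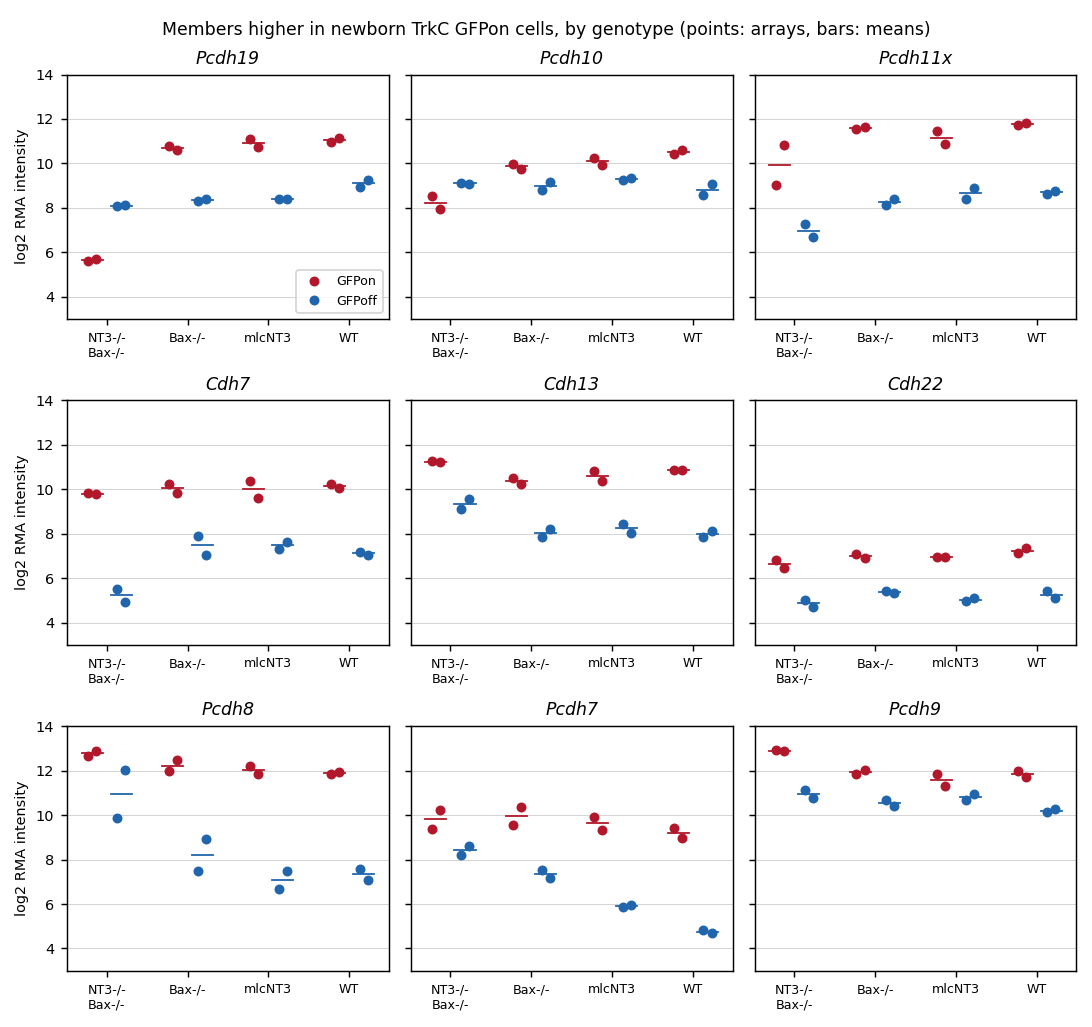
Log2 RMA intensity of 9 genes in newborn sorted cells of 4 genotypes, with 1 point for each array (red GFPon, blue GFPoff) and bars at the group means (n = 2). In Pcdh19 the NT3-/-Bax-/- GFPon arrays (5.61 and 5.68) lie below all others, in Cdh7 the NT3-/-Bax-/- GFPoff arrays (5.53 and 4.92) do, and in Pcdh7 GFPoff cells run between 4.69 and 8.63.

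Type II cadherins moved both ways. Cdh7, Cdh10 and Cdh22, all of them neuronal type II members, were on the GFPon side, and Cdh11, known from osteoblasts and mesenchyme, on the GFPoff side. Cdh7 measured 10.23 and 10.05 in WT GFPon cells against 7.18 and 7.04 in WT GFPoff cells (3.03 ± 0.32, limma adjusted p = 8.38e-05), and all 3 of its probe sets were called in each pooled genotype. Its difference was largest in NT3-/-Bax-/- cells (4.58, adjusted p = 2.64e-06), where GFPon cells had 9.81 and 9.80 and GFPoff cells 5.53 and 4.92. Its smallest difference, at L1 (2.13 ± 0.53, adjusted p = 0.0164), was lost without replicate 1 of the GFPoff cells (2.03, adjusted p = 0.0504) or replicate 1 (2.27, adjusted p = 0.0646) or 2 (1.99, adjusted p = 0.098) of the GFPon cells. Cdh22 was dim, with 7.12 and 7.35 in WT GFPon cells and 5.41 and 5.11 in WT GFPoff cells (1.98 ± 0.18, adjusted p = 3.04e-05), and the 2 sorts did not overlap in any genotype or level. Cdh10 was bright in both, at 11.02 and 11.17 in WT GFPon cells and 9.73 and 9.50 in WT GFPoff cells (1.47 ± 0.31, adjusted p = 0.0102), a call lost without replicate 2 of the GFPoff (1.36, adjusted p = 0.0924) or replicate 1 (1.55, adjusted p = 0.0558) or 2 (1.40, adjusted p = 0.0868) of the GFPon cells. The Cdh10 calls in NT3-/-Bax-/- (1.13, adjusted p = 0.024) and Bax-/- cells (1.31, adjusted p = 0.0225) were lost without replicate 1 (1.07, adjusted p = 0.0939) or 2 (1.18, adjusted p = 0.0578) of the NT3-/-Bax-/- GFPoff or replicate 2 of the NT3-/-Bax-/- GFPon cells (0.57, adjusted p = 0.195), and without any 1 of the 4 Bax-/- arrays (1.23 to 1.39, adjusted p = 0.0746 to 0.139). At L5 and L1 the Cdh10 differences of 1.59 ± 0.12 and 1.53 ± 0.13 (adjusted p = 3.75e-06 and 1.2e-05) held without any single array.

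Cdh8 and Cdh9, type II cadherins of which Cdh8 is known in mice from a class of cold-sensing neurons, split at the separate levels. Cdh8 was higher in GFPon cells at L5, with 9.72, 9.58 and 9.88 against 9.09, 9.07 and 9.17 in GFPoff cells (0.62 ± 0.15, limma adjusted p = 0.0119). At L1 it had 10.32 and 10.22 in GFPon cells against 8.75, 8.30 and 8.80 in GFPoff cells (1.66 ± 0.16, adjusted p = 3.76e-05). Cdh9 was lower in GFPon cells, at 8.74, 8.41 and 7.97 against 10.21, 10.07 and 10.02 at L5 (-1.72 ± 0.34, adjusted p = 0.00367), and at 5.78 and 7.44 against 9.71, 9.82 and 9.88 at L1 (-3.19 ± 0.38, adjusted p = 0.000134). In the pooled genotypes Cdh8 was called in none by its brightest probe set. Its 3 probe sets ran from 0.41 to 1.72 in WT, where 1 was called higher. In mlcNT3 they ran from -1.02 to -0.81, the direction opposite to L5 and L1, with 0 called. Among these genotypes Cdh9 was called in Bax-/- cells (-2.12 ± 0.52, adjusted p = 0.0273), where the GFPon arrays stood at 6.63 and 8.43 and the GFPoff arrays at 9.62 and 9.68. Without replicate 1 (-2.15, adjusted p = 0.124) or 2 (-2.09, adjusted p = 0.127) of the GFPoff or replicate 1 of the GFPon cells (-1.22, adjusted p = 0.201) that call ended.

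Cdh11, Cdh5, Cdh19 and Pcdh12 were higher in GFPoff cells wherever they were called between sorts. Cdh11 measured 10.19 and 10.10 in WT GFPon cells and 11.30 and 11.35 in WT GFPoff cells (-1.18 ± 0.21, limma adjusted p = 0.00325). The Bax-/- call of Cdh11 (-1.10, adjusted p = 0.00606) ended without replicate 1 of the GFPoff (-1.05, adjusted p = 0.0537) or of the GFPon cells (-0.84, adjusted p = 0.0559), and its 5 other calls held without any array. Cdh5, the VE-cadherin of endothelial junctions, lay at 4.77 and 4.56 in WT GFPon cells and 5.26 and 5.35 in WT GFPoff cells, which was not called, and at 4.38, 4.67 and 4.55 in L5 GFPon cells against 7.69, 6.86 and 7.43 in L5 GFPoff cells (-2.79 ± 0.27, adjusted p = 2.98e-05). Each Cdh5 call between sorts rested on 1 of its 2 probe sets. The other gave 0.38 at L5, -0.21 in NT3-/-Bax-/- and 0.43 in mlcNT3 cells. Pcdh12, another protein of endothelial cells, had 5.32 and 4.90 in WT GFPon cells and 7.75 and 7.66 in WT GFPoff cells (-2.60 ± 0.26, adjusted p = 6.14e-05), but 1 of its 3 probe sets carried the call in each comparison and the median over them was not called in any (adjusted p = 0.927 in WT). The endothelial markers summed to 579 to 670 in L5 GFPon cells and 1710 to 2050 in L5 GFPoff cells, with 8 of 8 called lower in GFPon cells, and to 480 to 490 in WT GFPon and 606 to 624 in WT GFPoff cells, with 1 of 8. Cdh19, a marker of Schwann cell precursors and satellite glia, was called lower in GFPon cells of NT3-/-Bax-/- (-2.65 ± 0.51, adjusted p = 0.00318) and mlcNT3 mice (-1.89 ± 0.51, adjusted p = 0.0352). The mlcNT3 call ended without replicate 1 of the GFPoff (-1.31, adjusted p = 0.31) or of the GFPon cells (-0.99, adjusted p = 0.272), which held the lowest value of the 16 pooled arrays at 5.68, and after quantile normalization (adjusted p = 0.0533). The 8 glial markers summed to 5990 to 7400 in mlcNT3 GFPon cells and 12000 to 13100 in mlcNT3 GFPoff cells. In WT they summed to 8000 to 9350 in GFPon and 11500 to 12100 in GFPoff cells, and in Bax-/- to 8380 to 11400 and 12900 to 13100. Glial signal was thus present in both sorts, and the part of vessel and glial cells in these differences was not tested.

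Several type II members were called on the GFPoff side in NT3-/-Bax-/- cells. Cdh5 measured 4.65 and 4.31 in NT3-/-Bax-/- GFPon cells against 8.21 and 8.53 in GFPoff cells (-3.89 ± 0.24, limma adjusted p = 1.19e-06), and Cdh6 9.02 and 10.66 against 12.001 and 12.154 (-2.23 ± 0.43, adjusted p = 0.00307). Both held without any single array, whereas the Cdh5 calls in Bax-/- (-1.23, adjusted p = 0.00763) and mlcNT3 cells (-1.12, adjusted p = 0.0108) ended without replicate 2 of the Bax-/- GFPoff (-0.83, adjusted p = 0.0754), the mlcNT3 GFPoff (-1.02, adjusted p = 0.0909) or the mlcNT3 GFPon cells (-0.97, adjusted p = 0.107), that of mlcNT3 also with the median over its probe sets (-0.35, adjusted p = 0.184). Cdh20 went both ways: it was higher in GFPon cells of mlcNT3 mice, at 6.96 and 6.78 against 5.26 and 5.52 (1.48, adjusted p = 0.000605), and lower in those of NT3-/-Bax-/- mice, at 5.29 and 5.33 against 6.02 and 6.44 (-0.92 ± 0.21, adjusted p = 0.00746). The NT3-/-Bax-/- call of Cdh20 ended without replicate 2 of the GFPoff cells (-0.72, adjusted p = 0.0557). The dim Pcdh20 (-1.003 ± 0.18, adjusted p = 0.00169) and Cdh17 (-0.68 ± 0.20, adjusted p = 0.0318) were lower in NT3-/-Bax-/- GFPon cells too, Cdh17 not without replicate 1 of the GFPoff (-0.48) or of the GFPon cells (-0.56). The other of the 2 Pcdh20 probe sets gave 0.004 and was not called. In these NT3-/-Bax-/- arrays all 8 glial, 8 endothelial and 7 fibroblast markers were called lower in GFPon cells, and their part in the differences was not tested.

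Type I cadherins were never called higher in GFPon cells. Cdh1, E-cadherin, measured 8.04, 7.87 and 8.31 in L5 GFPon cells against 9.90, 9.80 and 9.62 in L5 GFPoff cells (-1.70 ± 0.13, limma adjusted p = 6.6e-06), and at L1 8.52 and 8.58 against 10.34, 10.24 and 10.35 (-1.76 ± 0.15, adjusted p = 1.29e-05). It was also called lower in NT3-/-Bax-/- (-2.62 ± 0.51, adjusted p = 0.00348) and in mlcNT3 GFPon cells (-2.32 ± 0.51, adjusted p = 0.0122). The mlcNT3 call of Cdh1 was lost without replicate 1 (-2.16, adjusted p = 0.0999) or 2 (-2.49, adjusted p = 0.0525) of the GFPoff or replicate 1 of the GFPon cells (-1.91, adjusted p = 0.105). Cdh4, R-cadherin, was lower in GFPon cells at L5, with 8.07, 8.24 and 7.47 against 9.08, 8.97 and 9.08 (-1.11 ± 0.19, adjusted p = 0.00141), and at L1 (-1.04, adjusted p = 0.00494), the L1 call ending without replicate 2 of the GFPon cells (-0.82, adjusted p = 0.0609). Cdh2, N-cadherin, the main type I cadherin of neurons, was lower at L5, with 9.47, 9.72 and 9.37 in GFPon cells against 10.52, 10.47 and 10.38 in GFPoff cells (-0.94 ± 0.17, adjusted p = 0.00245). Its L1 call (-0.77, adjusted p = 0.0169) was lost without replicate 3 of the GFPoff (-0.72, adjusted p = 0.0565) or replicate 1 of the GFPon cells (-0.42, adjusted p = 0.184), and its mlcNT3 call (-0.91 ± 0.26, adjusted p = 0.0436) without replicate 1 (-1.08, adjusted p = 0.0985) or 2 (-0.75, adjusted p = 0.266) of the GFPoff or replicate 2 of the GFPon cells (-0.62, adjusted p = 0.357), or after quantile normalization (-0.81, adjusted p = 0.0536). Cdh3 and Cdh15 were called in none.

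Among the other cadherins, Cdh13 alone was called higher in GFPon cells. Cdh13, or T-cadherin, is held to the membrane by a lipid anchor and has no catenin-binding tail. It measured 10.85 and 10.89 in WT GFPon cells against 7.87 and 8.12 in WT GFPoff cells (2.87 ± 0.22, limma adjusted p = 8.48e-06), and its difference ran from 1.91 to 2.87 over the 6 comparisons. Among the pooled genotypes both sorts stood at their highest in NT3-/-Bax-/-, with 11.25 and 11.24 in GFPon and 9.12 and 9.56 in GFPoff cells.

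The effect of NT3 loss was read between NT3-/-Bax-/- and Bax-/- mice, which share the Bax deletion. In GFPon cells, 5 of 56 members were called higher and 6 lower without NT3, against 8.89% and 12.5% of all genes, and the median member difference was 0.05, against -0.02 over all genes. The lower ones held 3 of the 5 delta-2 protocadherins (Pcdh19, Pcdh10 and Pcdh17), whose median was -0.96. Pcdh19 measured 5.61 and 5.68 in NT3-/-Bax-/- GFPon cells against 10.77 and 10.62 in Bax-/- GFPon cells, a difference of -5.05 ± 0.16 (SE, n = 2 each, limma adjusted p = 3.01e-08). Its other 2 probe sets gave -4.84 and -0.52 and were both called (adjusted p = 5.58e-08 and 0.0409). Pcdh10 had 8.52 and 7.95 against 9.98 and 9.75 (-1.63 ± 0.23, adjusted p = 0.000471), with 3 of its 6 probe sets called lower and none higher. Both calls held without any single array. Pcdh17, the third, had 9.04 and 8.49 against 9.75 and 9.69 (-0.96 ± 0.27, adjusted p = 0.0272), a call lost without replicate 1 (-0.93, adjusted p = 0.109) or 2 (-0.98, adjusted p = 0.0678) of the Bax-/- or replicate 2 of the NT3-/-Bax-/- cells (-0.68, adjusted p = 0.163). Pcdh8 measured 12.66 and 12.91 in NT3-/-Bax-/- and 11.99 and 12.47 in Bax-/- GFPon cells and was not called.

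Of the remaining members in GFPon cells, Cdh9 and Cdh8 were lower without NT3. Cdh9 measured 4.91 and 5.06 in NT3-/-Bax-/- against 6.63 and 8.43 in Bax-/- cells (-2.54 ± 0.52, limma adjusted p = 0.00537). Cdh8 had 6.80 and 7.61 against 9.47 and 9.12 (-2.09 ± 0.49, adjusted p = 0.0106), a call that ended without replicate 1 of the Bax-/- (-1.91, adjusted p = 0.0688) or of the NT3-/-Bax-/- cells (-1.68, adjusted p = 0.0904). Pcdh11x had 9.02 and 10.84 against 11.55 and 11.63 (-1.66 ± 0.44, adjusted p = 0.0208), and the spread between its 2 NT3-/-Bax-/- arrays was wider than in any other GFPon group. Without replicate 1 of those cells the Pcdh11x difference was -0.76, and without replicate 1 or 2 of the Bax-/- cells -1.70 and -1.63, and each of these refits ended the call. In GFPoff cells the 2 Pcdh11x probe sets gave -1.70 and -1.32 between the same genotypes. There 1 of the 2 was called lower, but not the brightest one. On the other side, Pcdh18 measured 8.85 and 8.77 in NT3-/-Bax-/- against 6.87 and 7.64 in Bax-/- cells (1.56 ± 0.32, adjusted p = 0.00521), lost without replicate 1 of the Bax-/- cells (1.18, adjusted p = 0.0539). Pcdh9 had 12.93 and 12.87 against 11.85 and 12.05 (0.95 ± 0.21, adjusted p = 0.0076), lost without the same array (0.85, adjusted p = 0.055). Cdh13 had 11.25 and 11.24 against 10.52 and 10.24 (0.87 ± 0.22, adjusted p = 0.0163), lost without replicate 2 of the Bax-/- (0.73, adjusted p = 0.0828) or replicate 1 of the NT3-/-Bax-/- cells (0.87, adjusted p = 0.0683) and with the median over its 4 probe sets (0.46, adjusted p = 0.328). In the same cells Pvalb, the calcium buffer of mature proprioceptors, stood at 7.29 and 9.71 in NT3-/-Bax-/- and 13.18 and 13.05 in Bax-/- mice, the proprioceptor markers summed to 4650 to 6570 against 14700 to 15900 (2 of 5 called lower), and the glial markers to 2730 to 5650 against 8380 to 11400. Their part in these results was not tested.

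In GFPoff cells, 10 members were called higher and 4 lower in NT3-/-Bax-/- mice, while 10.2% and 15.3% of all genes were. The median over the 56 members was -0.21, against -0.04 over all genes. Cdh7, Cdh8 and Cdh9 were the type II cadherins that were lower. Cdh9 measured 7.07 and 5.65 in NT3-/-Bax-/- against 9.62 and 9.68 in Bax-/- GFPoff cells (-3.29 ± 0.52, limma adjusted p = 0.00102), Cdh8 6.90 and 5.06 against 8.22 and 8.86 (-2.56 ± 0.49, adjusted p = 0.00291), and Cdh7 5.53 and 4.92 against 7.92 and 7.02 (-2.25 ± 0.32, adjusted p = 0.000531). All 3 calls held without any single array. The 3 nociceptor markers summed to 1550 to 3900 in these NT3-/-Bax-/- cells and 4740 to 5240 in Bax-/- cells (1 of 3 called lower), and the 6 general neuronal markers to 27800 to 30700 and 41200 to 44800 (2 of 6 called lower).

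The higher members of the GFPoff cells were led by Pcdh8 and by cadherins of vessels and glia. Pcdh8 had 9.88 and 12.03 in NT3-/-Bax-/- against 7.47 and 8.91 in Bax-/- cells (2.76 ± 0.59, limma adjusted p = 0.00561), lost without replicate 1 of the Bax-/- cells (2.04, adjusted p = 0.0733). Cdh5 had 8.21 and 8.53 against 5.51 and 6.32 (2.45 ± 0.24, adjusted p = 5.62e-05), although 1 of its 2 probe sets was called and the other gave 0.19 (adjusted p = 0.57). Cdh6, K-cadherin, had 12.001 and 12.154 against 9.55 and 10.01 (2.30 ± 0.43, adjusted p = 0.00268). Cdh19 had 9.91 and 10.67 against 8.19 and 8.25 (2.07 ± 0.51, adjusted p = 0.0127), lost without replicate 1 (2.04, adjusted p = 0.0741) or 2 (2.10, adjusted p = 0.0528) of the Bax-/- or replicate 2 of the NT3-/-Bax-/- cells (1.69, adjusted p = 0.0843). In the same arrays 7 of 8 endothelial, 7 of 7 fibroblast and 5 of 8 glial markers were called higher, with the sums given above. Ntrk3, which encodes TrkC itself, stood at 9.09 and 9.15 in NT3-/-Bax-/- and 6.85 and 7.41 in Bax-/- GFPoff cells, and the proprioceptor markers summed to 1100 to 1420 and 443 to 449. Their part in these results was not tested.

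The other calls in GFPoff cells were of lower level or smaller size. Cdh13 had 9.12 and 9.56 in NT3-/-Bax-/- against 7.87 and 8.21 in Bax-/- cells (1.30 ± 0.22, limma adjusted p = 0.00141) but was not called with the median over its probe sets (0.71, adjusted p = 0.101). The dim Pcdh20 had 5.42 and 5.37 against 4.53 and 4.39 (0.94 ± 0.18, adjusted p = 0.00274), while the other of its 2 probe sets gave 0.15 and was not called. Pcdh18 had 8.15 and 8.20 against 6.40 and 7.28 (1.34 ± 0.32, adjusted p = 0.0105) with all 3 of its probe sets called, but not without replicate 1 of the Bax-/- cells (0.90, adjusted p = 0.126). Pcdh7 (1.06 ± 0.32, adjusted p = 0.0338) was lost without replicate 1 (1.24, adjusted p = 0.0762) or 2 (0.88, adjusted p = 0.178) of the Bax-/- or replicate 2 of the NT3-/-Bax-/- cells (0.85, adjusted p = 0.167), and with the median over its probe sets (0.63, adjusted p = 0.194). Cdh20 (0.86 ± 0.21, adjusted p = 0.0109) was lost without replicate 2 of either genotype (0.77, adjusted p = 0.0718, without the Bax-/- array and 0.65, adjusted p = 0.0834, without the other). Cdh17 (0.73 ± 0.20, adjusted p = 0.021) lay under a log2 level of 5 in all 4 arrays and was lost without replicate 1 (0.70, adjusted p = 0.115) or 2 (0.76, adjusted p = 0.0714) of the Bax-/- or replicate 1 of the NT3-/-Bax-/- cells (0.53, adjusted p = 0.134). The remaining lower call, Pcdh12 (-0.80 ± 0.26, adjusted p = 0.0489), ended without replicate 1 (-0.59, adjusted p = 0.303) or 2 (-1.01, adjusted p = 0.0567) of the Bax-/- or replicate 1 of the NT3-/-Bax-/- cells (-0.50, adjusted p = 0.287), after quantile normalization (-0.78, adjusted p = 0.0563), and with the median over its probe sets, which was 0.30.

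**Figure D3:**
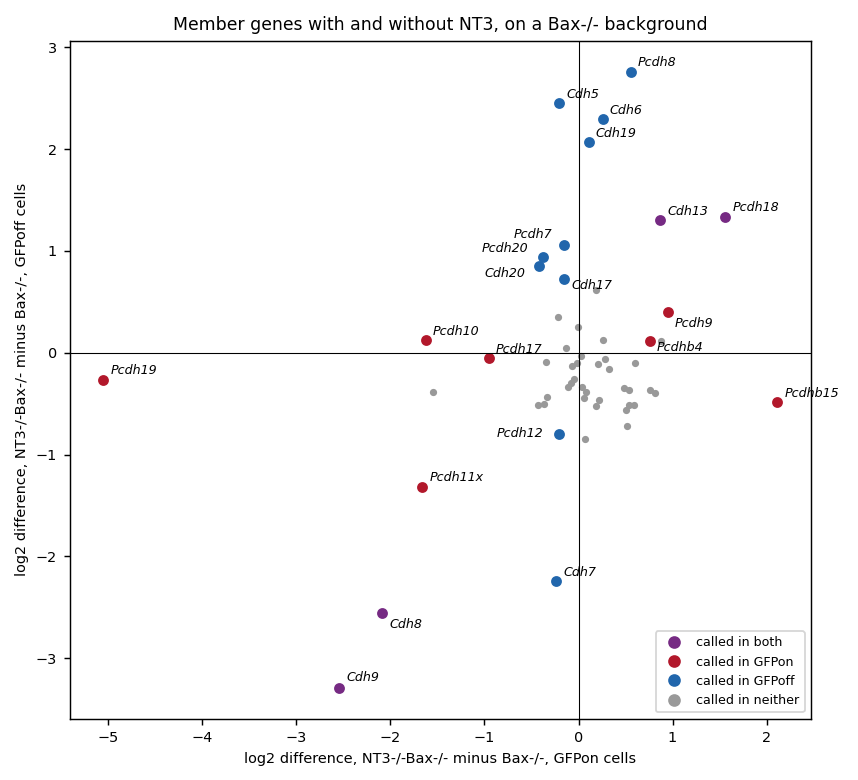
Log2 difference of each of the 56 genes between NT3-/-Bax-/- and Bax-/- mice in GFPon cells (horizontal axis) and GFPoff cells (vertical axis), coloured by where the adjusted p was under 0.05. Pcdh19 lies at -5.05 in GFPon cells and near 0 in GFPoff cells, Cdh8 and Cdh9 lie low on both axes, and Cdh13 and Pcdh18 high on both.

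Cdh13 and Pcdh18 were called higher in both, 2 of the 5 higher in GFPon and 2 of the 10 higher in GFPoff cells, and Cdh8 and Cdh9 lower in both, 2 of 6 and 2 of 4. The share of all genes called the same way in both sorts was not counted. Whether the effect of NT3 loss differed between sorts was tested as an interaction, the genotype difference in GFPon cells minus that in GFPoff cells. It was called positive in 3 members and negative in 5, while 5.62% and 7.17% of all genes were. Pcdh19 had the largest value (-4.79 ± 0.23, limma adjusted p = 3.54e-06), and its GFPoff levels of 8.07 and 8.13 in NT3-/-Bax-/- and 8.32 and 8.41 in Bax-/- mice lay close together. Its 3 probe sets ran from -0.55 to 0.02 between these GFPoff cells, and 1 of them, not the brightest, was called lower. Pcdh10 followed among delta-2 members (-1.75 ± 0.32, adjusted p = 0.00486), and Cdh5 (-2.66 ± 0.34, adjusted p = 0.00057), Pcdh20 (-1.31 ± 0.25, adjusted p = 0.00584) and Cdh20 (-1.28 ± 0.29, adjusted p = 0.0159) were the other negative ones. Pcdhb15 (2.60 ± 0.43, adjusted p = 0.00278), Cdh7 (2.00 ± 0.45, adjusted p = 0.0156) and Pcdhb20 (1.07 ± 0.31, adjusted p = 0.0466) were positive. The 3 Cdh7 probe sets ran from -0.43 to 1.73 between genotypes in GFPon cells, and 1 of them was called higher. Cdh7 was not called without replicate 1 of the Bax-/- GFPoff cells (1.56, adjusted p = 0.0657), nor Cdh20 without replicate 2 of them (-1.20, adjusted p = 0.0581), and Pcdhb20 was lost in 6 of 8 such refits and after quantile normalization (0.98, adjusted p = 0.0619).

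The clustered protocadherins, all 23 on chromosome 18, had more calls between sorts in NT3-/-Bax-/- cells than in any other of the 6 comparisons. There 7 of the 23 were called higher in GFPon than in GFPoff cells and 0 lower, where 12.4% and 11.7% of all genes were, with a median difference of 0.62, against 0.03 over all genes. In WT the median was 0.05 with 0 of 23 called (1 higher at an unadjusted p under 0.05), in Bax-/- -0.12 with 1 called, and in mlcNT3 -0.26 with 1 called. General neuronal markers summed to 33200 to 41900 in NT3-/-Bax-/- GFPon and 27800 to 30700 in NT3-/-Bax-/- GFPoff cells. In Bax-/- mice these sums were 48400 to 48900 and 41200 to 44800. Fibroblast and meninges markers summed to 32400 to 46200 in NT3-/-Bax-/- and 2480 to 4020 in Bax-/- GFPoff cells. The part of this make-up in the clustered differences was not tested. Pcdhb15 measured 8.96 and 8.13 in NT3-/-Bax-/- GFPon cells against 6.26 and 6.97 in GFPoff cells (1.93 ± 0.31, limma adjusted p = 0.000839). Pcdhb20 had 10.38 and 10.01 against 8.88 and 8.54 (1.49 ± 0.22, adjusted p = 0.000439), and Pcdhb21 8.58 and 8.74 against 7.33 and 7.22 (1.39 ± 0.30, adjusted p = 0.00672). These 3 calls held without any single array, and the sorts did not overlap in any of them. Of the 2 Pcdhb15 probe sets, however, 1 was called here, and the other gave 0.20. Pcdhb9 (1.06, adjusted p = 0.0203) was lost without replicate 2 of the GFPoff (0.62, adjusted p = 0.153) or replicate 1 (0.98, adjusted p = 0.0895) or 2 (1.14, adjusted p = 0.0523) of the GFPon cells. Pcdhb3 (0.99, adjusted p = 0.0423) was lost without replicate 1 of the GFPoff (0.58, adjusted p = 0.299) or replicate 1 (1.06, adjusted p = 0.0921) or 2 (0.91, adjusted p = 0.149) of the GFPon cells, and after quantile normalization (0.87, adjusted p = 0.0585). Pcdhb12 (0.95, adjusted p = 0.0291) was lost without replicate 2 of the GFPoff (0.59, adjusted p = 0.196) or replicate 1 of the GFPon cells (0.60, adjusted p = 0.213), and the dim Pcdhb11 (0.56, adjusted p = 0.0291) without replicate 2 of either sort (0.40, adjusted p = 0.167, without the GFPoff array and 0.45, adjusted p = 0.151, without the other).

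In the interaction of genotype and sort given above, 2 of the 23 clustered genes were called positive (8 at an unadjusted p under 0.05) and 0 negative, with a median of 0.71, against 0.04 over all genes. Of all genes, 5.62% were called positive and 7.17% negative in it. Against Bax-/- mice, NT3-/-Bax-/- GFPon cells had 2 of 23 clustered genes called higher and a median of 0.49, and GFPoff cells 0 called and a median of -0.36 (0 higher and 4 lower at an unadjusted p under 0.05 in limma). The shares of all genes called were 8.89% higher and 12.5% lower in GFPon cells, and 10.2% and 15.3% in GFPoff cells. Marker sums also differed between these genotypes, as given above, and their part in the clustered genes was not tested. Pcdhb15 measured 8.96 and 8.13 in NT3-/-Bax-/- against 6.17 and 6.69 in Bax-/- GFPon cells (2.11 ± 0.31, adjusted p = 0.0006). Its level in WT GFPon cells, 7.48 and 7.75, and in mlcNT3 GFPon cells, 7.70 and 7.74, lay between those of the 2 mutants. The other Pcdhb15 probe set gave 0.15 between NT3-/-Bax-/- and Bax-/- GFPon cells and was not called. Pcdhb4 (0.76 ± 0.24, adjusted p = 0.0445) was the other call and was lost without replicate 1 (0.74, adjusted p = 0.15) or 2 (0.78, adjusted p = 0.0991) of the Bax-/- or replicate 1 of the NT3-/-Bax-/- cells (0.43, adjusted p = 0.334), and with the median over its probe sets (0.44, adjusted p = 0.105). At L5, Pcdhb9 was lower in GFPon cells, with 9.93, 8.23 and 9.07 against 10.59, 10.63 and 10.97 in GFPoff cells (-1.65 ± 0.32, adjusted p = 0.00355), while Pcdhb9 in L1 GFPon cells had 11.02 and 10.90 and L1 GFPoff cells 10.503, 10.293 and 10.435, which was not called. The remaining clustered calls between sorts (Pcdhgc4 in Bax-/-, Pcdhb3 in mlcNT3, Pcdhb10, Pcdhb20 and Pcdhb22 at L5, Pcdhb4 and Pcdhb22 at L1) were each lost without at least 1 array. Pcdhgc4 measured 8.69 and 9.10 in Bax-/- GFPon and 7.54 and 8.06 in Bax-/- GFPoff cells (1.09 ± 0.29, adjusted p = 0.0388), lost without any 1 of these 4 arrays (0.84 to 1.35, adjusted p = 0.0541 to 0.287). Pcdhb3 had 8.58 and 8.25 in mlcNT3 GFPon and 9.56 and 9.66 in mlcNT3 GFPoff cells (-1.19 ± 0.31, adjusted p = 0.028), lost without any 1 of these 4 (-1.36 to -1.03, adjusted p = 0.0636 to 0.202). Clustered members share long stretches of similar sequence, so a probe set may read more than 1 of them, and 12 of the 23 reached a mean log2 level of 7 in a pooled newborn group.

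Bax loss alone and surplus muscle NT3 left the family without a call in GFPon cells. Between Bax-/- and WT, 0 of 56 genes were called in limma, 2 were higher and 10 lower at an unadjusted p under 0.05, and the methods' t-test called 0 (0.374% of all genes), while 0.187% of all genes were called higher and 0.154% lower. The smallest p belonged to Pcdhb15, with 6.17 and 6.69 in Bax-/- and 7.48 and 7.75 in WT cells (-1.18 ± 0.31, adjusted p = 0.124). Between mlcNT3 and WT, 0 were called in limma, 2 were higher and 5 lower at an unadjusted p under 0.05, and the methods' t-test called 1 (1.53% of all genes), against 0.198% and 0.115% of all genes in limma. There the smallest p was that of Cdh8, with 7.62 and 7.22 in mlcNT3 and 9.55 and 9.02 in WT GFPon cells (-1.87 ± 0.49, adjusted p = 0.256). Pcdh19 measured 11.08 and 10.75 in mlcNT3, 10.77 and 10.62 in Bax-/- and 10.94 and 11.16 in WT GFPon cells.

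L5 DRG innervate the hindlimb and L1 DRG mainly the trunk, and newborn cells of the 2 levels were compared within each sort. In GFPon cells, 1 member was higher at L5 and 0 lower (6 and 6 at an unadjusted p under 0.05, 1 by the methods' t-test, which called 0.495% of all genes), against 0.379% and 0.159% of all genes in limma. This was Pcdh17, with 10.61, 10.55 and 9.94 at L5 and 8.47 and 8.43 at L1 (1.92 ± 0.24, limma adjusted p = 0.00989), and both of its probe sets were called. Without replicate 1 or 2 of the L1 cells its adjusted p was 0.0773 (1.94) and 0.0502 (1.90). In GFPoff cells Pcdh17 had 9.97, 10.02 and 10.63 at L5 and 10.11, 10.04 and 10.27 at L1, all above the L1 GFPon arrays. Its interaction of sort and level, a test given in the next paragraph, was not called. In GFPoff cells, 2 members were higher at L5 and 0 lower (6 and 4 at an unadjusted p under 0.05, 2 by the methods' t-test, which called 0.412% of all genes), against 0.181% and 0.033% of all genes. Pcdh11x measured 9.41, 9.05 and 9.59 at L5 and 7.78, 7.59 and 8.13 at L1 (1.52 ± 0.18, adjusted p = 0.00748), lost without replicate 1 of the L5 cells (1.49, adjusted p = 0.0574). Pcdh19 had 9.49, 9.47 and 9.54 at L5 and 8.34, 7.75 and 8.19 at L1 (1.41 ± 0.19, adjusted p = 0.0175), and all 3 of its probe sets were called. Its call was lost without replicate 2 (1.24, adjusted p = 0.0631) or 3 (1.46, adjusted p = 0.0592) of the L1 cells, or replicate 1 (1.41, adjusted p = 0.0911), 2 (1.43, adjusted p = 0.0873) or 3 (1.39, adjusted p = 0.0828) of the L5 cells, though no L5 value overlapped an L1 value.

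The difference between levels was not shown to differ between sorts. The interaction of sort and level was called in 0 of 56 members by limma (4 positive and 8 negative at an unadjusted p under 0.05), while 0.077% and 0.0495% of all genes were called. Pcdh11x had an interaction of -1.49 ± 0.27 (adjusted p = 0.113), with GFPon levels of 12.13, 11.95 and 11.71 at L5 and 11.95 and 11.86 at L1. Cdh8 (-1.04 ± 0.22, adjusted p = 0.176) and Pcdhb9 (-2.21 ± 0.48, adjusted p = 0.179) were not called either. Pcdh17, with a sort difference of 0.16 at L5 and -1.69 at L1, was also among the members not called. The proprioceptor markers summed to 17000 to 19200 in L5 and 17000 to 19300 in L1 GFPon cells, and to 544 to 1210 in L5 and 515 to 1590 in L1 GFPoff cells.

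In whole adult DRG, 5 of the 12 non-clustered protocadherins and the type II cadherin Cdh7 were higher at L5 than at L1 both with and without the running wheel. With the running wheel, 7 members were called higher at L5 and 1 lower, against 3.99% and 3.09% of all genes. Without it, 6 were called higher and 0 lower (11 and 5 at an unadjusted p under 0.05 in limma, 5 by the methods' t-test, which called 1.7% of all genes), against 2.62% and 3.56%. Pcdh7, Pcdh8, Pcdh11x, Pcdh18, Pcdh19 and Cdh7 were higher in both, 6 of the 7 and 6 of the 6, and all of these calls held without any single array. The share of all genes called in both wheel states was not counted. Delta-2 protocadherins had a median difference of 0.65 with the wheel and 0.99 without, against -0.02 over all genes in both.

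Pcdh11x measured 9.23, 9.27 and 9.25 at L5 and 7.67, 7.76 and 7.80 at L1 with the wheel (1.504, limma adjusted p = 1.69e-07), and 8.75, 8.87 and 8.96 at L5 and 7.46, 7.67 and 7.63 at L1 without it (1.27 ± 0.09, adjusted p = 1.65e-06). Pcdh8 had 9.96, 9.74 and 10.10 at L5 and 8.85, 8.77 and 8.74 at L1 with the wheel (1.14, adjusted p = 0.000183), and 9.71, 9.87 and 10.23 against 8.16, 8.65 and 8.44 without it (1.52 ± 0.14, adjusted p = 2.9e-05). Pcdh19 had 8.25, 8.26 and 8.02 at L5 and 7.43, 7.61 and 7.55 at L1 with the wheel (0.65, adjusted p = 0.000717), and 8.08, 8.26 and 8.31 against 7.24, 7.23 and 7.22 without it (0.99 ± 0.09, adjusted p = 3.36e-05). In these 3 genes every L5 array was above every L1 array. Pcdh18 had 9.05, 9.11 and 9.14 at L5 and 7.70, 7.65 and 7.64 at L1 with the wheel (1.44, adjusted p = 3.56e-07), and 8.44, 8.74 and 8.71 against 7.54, 7.67 and 7.69 without it (1.00 ± 0.09, adjusted p = 2.45e-05). Pcdh7 (0.91, adjusted p = 0.00181, with the wheel and 0.67 ± 0.15, adjusted p = 0.018, without) and Cdh7 (0.72, adjusted p = 0.00837, and 0.98 ± 0.15, adjusted p = 0.00143) rested on their brightest probe set: with the median over probe sets neither was called in either state, and Cdh7 gave -0.01 without the wheel.

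With the wheel alone, Cdh22 was called higher at L5 (0.57 ± 0.13, limma adjusted p = 0.0181) and Cdh10 lower (-0.38 ± 0.10, adjusted p = 0.0448). Cdh22 was lost without replicate 1 (0.52, adjusted p = 0.0556) or 3 (0.56, adjusted p = 0.0614) of the L1 or replicate 1 (0.59, adjusted p = 0.0522) or 3 (0.49, adjusted p = 0.0776) of the L5 DRG with the wheel. Cdh10 was lost without replicate 2 (-0.34, adjusted p = 0.151) or 3 (-0.34, adjusted p = 0.15) of the L1 or replicate 1 (-0.33, adjusted p = 0.179), 2 (-0.42, adjusted p = 0.0705) or 3 (-0.39, adjusted p = 0.0933) of the L5 DRG, and with the median over its probe sets (adjusted p = 0.103). The bright glial Cdh19 lay between 10.48 and 10.96 in all 12 adult arrays and Cdh11 between 11 and 11.38, with neither called. In the same DRG the 5 proprioceptor markers summed to 2880 to 3180 at L5 and 1790 to 1830 at L1 with the wheel, and to 2520 to 3160 and 1650 to 1780 without, and the 3 nociceptor markers to 2720 to 3130 at L5 and 3830 to 3970 at L1 with the wheel, and to 2520 to 2820 and 3370 to 3860 without. The proprioceptor sums were thus higher at L5 and the nociceptor sums lower, and their part in the differences was not tested.

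**Figure D4:**
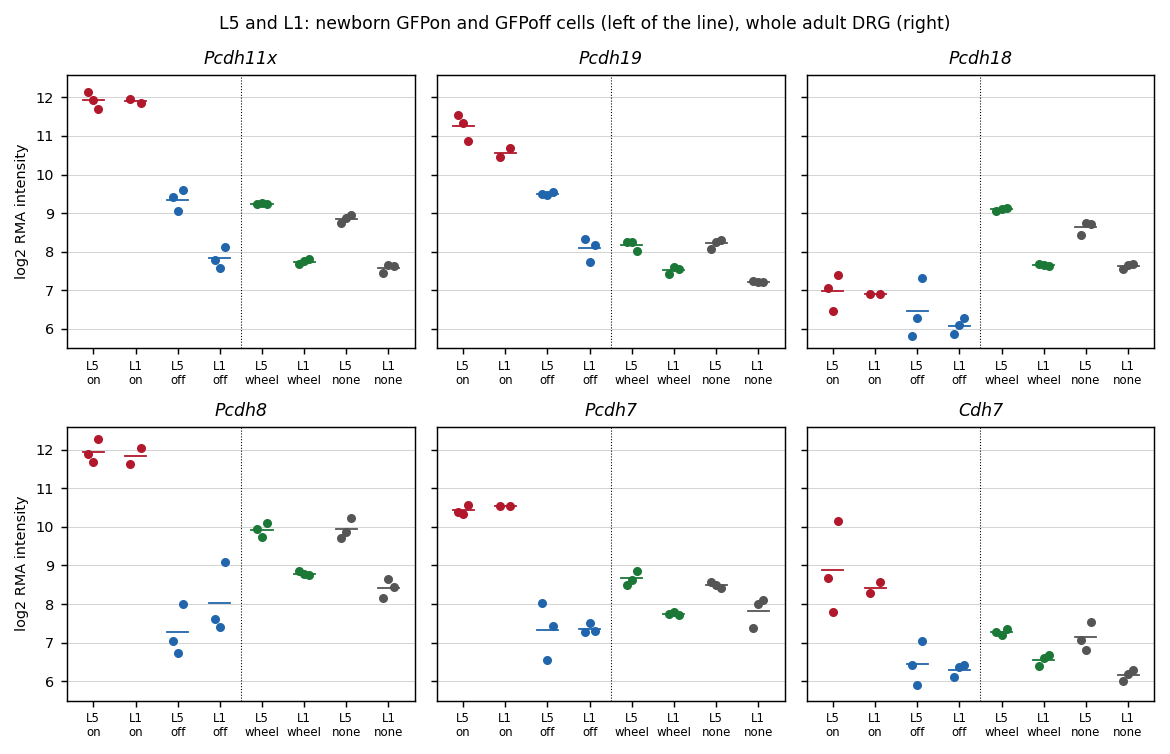
Log2 RMA intensity of 6 genes at L5 and L1, left of the dotted line in newborn GFPon (red) and GFPoff (blue) cells and right of it in whole adult DRG with the wheel (green) and without (grey), with 1 point for each array and bars at the means (n = 3, except 2 for L1 GFPon). Pcdh11x and Pcdh19 are higher at L5 in newborn GFPoff cells and in adult DRG, and Pcdh18 reaches 9.05 to 9.14 in L5 DRG with the wheel.

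Between adult DRG with and without the wheel 1 member was called, and most refits that left out an array lost that call. At L5, 1 gene was called higher and 0 lower (4 and 4 at an unadjusted p under 0.05 in limma, 0 by the methods' t-test, which called 0.247% of all genes), against 0.379% and 0.137% of all genes. Pcdh18 measured 9.05, 9.11 and 9.14 with the wheel and 8.44, 8.74 and 8.71 without (0.47 ± 0.09, adjusted p = 0.0425), and the 2 groups did not overlap. This call was lost without replicate 1 (0.49, adjusted p = 0.114), 2 (0.46, adjusted p = 0.164) or 3 (0.45, adjusted p = 0.0829) of the L5 DRG with the wheel, without replicate 2 (0.52, adjusted p = 0.104) or 3 (0.51, adjusted p = 0.068) of those without, and after quantile normalization (adjusted p = 0.0684). Pcdh11x, with 9.23, 9.27 and 9.25 against 8.75, 8.87 and 8.96, came next (0.39 ± 0.09, adjusted p = 0.0573). At L1, 0 members were called by limma (4 higher and 2 lower at an unadjusted p under 0.05, 0 by the methods' t-test, which called 0.115% of all genes), against 0.066% and 0.0605% of all genes, and the smallest p was that of Pcdh19 (0.30 ± 0.09, adjusted p = 0.229). The interaction of wheel and level was called in 0 members by limma (1 positive and 2 negative at an unadjusted p under 0.05) and in 0% of genes in either direction, with Pcdh18 at 0.44 ± 0.13 (adjusted p = 0.251).

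Partners of the cadherins were read from 3 lists: 15 catenins and other cadherin partners, 11 atypical cadherins and 6 regulators of the clustered genes. In WT GFPon against GFPoff cells, 1 of 15 partners was called higher and 3 lower, 2 of 11 atypical cadherins higher and 3 lower, and 1 of 6 regulators higher and 0 lower, where 6.77% of all genes were called higher and 5.16% lower. Pkp4, a p120-related protein of cadherin tails, was higher in GFPon cells (2.10 ± 0.25, limma adjusted p = 0.000189), and so were Fat3, a giant atypical cadherin (2.93 ± 0.49, adjusted p = 0.00231), Clstn3, a calsyntenin (1.29, adjusted p = 0.00186), and Dnmt3a, a DNA methyltransferase (0.74, adjusted p = 0.0401). Ctnna1, alpha-catenin of many epithelia (-1.11, adjusted p = 0.0158), Arvcf, another p120 relative (-1.08, adjusted p = 0.000886), and Adam10, a protease that sheds cadherins (-1.04, adjusted p = 0.00137), were lower, as were Celsr1 (-1.71, adjusted p = 0.0114), Celsr3 (-0.67, adjusted p = 0.0245) and Fat4 (-1.42, adjusted p = 0.0342).

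Without NT3, some of these partners moved in GFPon cells in the direction opposite to their WT sort difference. Between NT3-/-Bax-/- and Bax-/- GFPon cells, 5 of 15 partners were called higher and 2 lower, 3 of 11 atypical cadherins higher and 3 lower, and 2 of 6 regulators higher and 0 lower, where 8.89% of all genes were called higher and 12.5% lower. Pkp4 (-3.70 ± 0.25, limma adjusted p = 4e-06) and Fat3 (-3.18 ± 0.49, adjusted p = 0.000936) were lower. Arvcf (1.59 ± 0.16, adjusted p = 4.9e-05), Ptprm, a receptor phosphatase found with cadherins (1.94 ± 0.17, adjusted p = 1.7e-05), and Afdn, an adaptor of adherens junctions (1.56, adjusted p = 0.000248), were higher. Smchd1 (1.20, adjusted p = 0.00251), known to silence clustered protocadherin genes in mice, and Smc3 of the cohesin ring (1.07, adjusted p = 0.0217) were higher as well. In adult DRG no atypical cadherin and no regulator was called by level, and Ptprm was lower at L5 both with the wheel (-0.34, adjusted p = 0.0304) and without it (-0.47 ± 0.09, adjusted p = 0.00519).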

How the data were processed

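Affymetrix mouse genome arrays were read from 1 table of the whole series. The deposited values were linear intensities that the authors made from the scanned arrays by robust multi-array averaging (RMA), and the submitters' processing notes name R 2.9, affy, RMA and MAS5. A joint RMA run over the 39 arrays is not given in the sources used here, so each test stayed within 1 set of arrays. Array medians lay between 6.02 and 6.18 on the log2 scale, and the lowest correlation within a group was between 0.972 and 0.997.

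The log2 of each value was taken without a pseudocount, and 64 control probe sets were left out. Of 45037 probe sets, 34945 were annotated to 1 gene, 932 to several and 9160 to none, and all 56 member genes matched RefSeq by Entrez ID. Group means were fitted in limma 3.58.1 (R 4.3.3) without covariates, in separate fits for 16 pooled newborn, 11 newborn L5 and L1 and 12 adult arrays, with Benjamini-Hochberg adjustment over all 45037 probe sets. The fit was tested on simulated data. The alternatives were quantile normalization, a filter on dim probe sets (log2 of at least 7 in as many arrays as the smallest group holds), the methods' t-test (p up to 0.02 with a fold from 2, or from 1.5 in adults and for mlcNT3 against WT) with and without adjustment, the replicate number as a term, the median over a gene's probe sets, and leaving out each array.

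Genes were named by rule: called members (at most 10 a direction), type I and II cadherins reaching a mean log2 of 8 in a group, Cdh5, Cdh19, and up to 4 called genes a direction of each partner list. The members and lists were chosen with earlier results of these data known. The titles of adult samples hold a TrkC sign, + at L1 and - at L5, but these samples are described as whole DRG and were used as such. The methods name C57Bl6 males for the adults, where the labels name a mixed background. About 350 sorted cells were taken per newborn sample, and 100 at L5 and L1.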

Additional observations from a re-analysis of the deposited data

Results flagged for a closer look

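The effect of NT3 loss differed between GFPon and GFPoff cells by the interaction test in limma for 8 of 56 member genes. Of all genes, 5.62% were called positive and 7.17% negative in this test. The value is the NT3-/-Bax-/- minus Bax-/- difference in GFPon cells less that in GFPoff cells, on the log2 scale. It was -4.79 for Pcdh19, -2.66 for Cdh5, -1.75 for Pcdh10, -1.31 for Pcdh20 and -1.28 for Cdh20, and 2.60 for Pcdhb15, 2.00 for Cdh7 and 1.07 for Pcdhb20. The Cdh20 and Cdh7 calls were each lost in 1 of the 8 refits that left out an array, and that of Pcdhb20 in 6 of 8. In Pcdh19, Pcdh10 and Pcdhb15 the GFPon difference was the larger (-5.05, -1.63 and 2.11). In Cdh5, Cdh7, Pcdh20 and Cdh20 it was the GFPoff difference (2.45, -2.25, 0.94 and 0.86). All of these are values of the brightest probe set. Over probe sets, the GFPon difference ran from 0.15 to 2.11 in Pcdhb15 (1 of 2 called). In Cdh7 it ran from -0.43 to 1.73 (1 of 3 called higher). The GFPoff difference ran from 0.19 to 2.45 in Cdh5 and from 0.15 to 0.94 in Pcdh20 (1 of 2 called in each). In NT3-/-Bax-/- GFPoff cells the fibroblast, endothelial and glial marker sums were higher than in Bax-/- GFPoff cells, and the neuronal and nociceptor sums lower. Their part in these values was not tested.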

How the results depend on the processing

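Of 164 calls of a member gene in a comparison, 107 held without any single array and 96 in every refit. Quantile normalization ended 7 of 164, the filter on dim probe sets 0 of 142 that it could fit, and the median over a gene's probe sets 15 of 156. That median also reversed 4 (Cdh7 in adult L5 against L1 without the wheel at -0.011, Pcdh12 at 0.15 between sorts at L5, 0.043 between mlcNT3 sorts and 0.30 in NT3-/-Bax-/- against Bax-/- GFPoff cells), and the cause was not tested. The filter and the median were not run for the interactions. The methods' t-test at its thresholds called 8 members between NT3-/-Bax-/- sorts (4.64% of all 18193 genes), 7 between Bax-/- sorts (3.4%), 8 between mlcNT3 sorts (5.84%), 13 between L5 sorts (9.36%), 1 in NT3-/-Bax-/- against Bax-/- in each sort (3.78% in GFPon and 3.97% in GFPoff cells), 1 in mlcNT3 against WT (1.53%) and 0 for the wheel at L5 (0.247%). After Benjamini-Hochberg it called 14 between L5 sorts (15.3% of all genes), 12 between L1 sorts (7.92%), 2 for adult level with the wheel (0.621%) and 0 members in all other comparisons it was run for (at most 0.0055% of all genes). For newborn L5 against L1 GFPon cells, the dim filter and the median each gave 2 calls. For the wheel at L5, the dim filter gave 2 and quantile normalization 0. The replicate block ended 12 of 164 calls, among them that of Pcdh18, which left 0 calls for the wheel at L5, and it moved no other count by over 1.5 times. Between sorts it ended those of Cdh2, Cdh19 and Pcdh9 in mlcNT3, Pcdhb11 in NT3-/-Bax-/-, Cdh2 and Pcdhb4 at L1, and Pcdhb22 at L5 and L1. The rest were Pcdhb4 between NT3-/-Bax-/- and Bax-/- GFPon cells, Pcdhb20 in their interaction with sort, and Cdh10 between adult levels with the wheel. Same-numbered samples had correlated deviations between pooled sorts of NT3-/-Bax-/- (0.158), Bax-/- (0.283) and WT mice (0.197), but hardly in mlcNT3 (0.00768). The correlations were 0.0849 to 0.203 between L5 sorts and 0.0626 to 0.23 between newborn levels of GFPoff cells. They were -0.07 to 0.00623 between L1 sorts and -0.241 to 0.202 in adults. As same-numbered samples did not always deviate together, the numbers were not taken as pairs.

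Without each array in turn, calls ran from 5 (without replicate 1 of the Bax-/- cells) to 11 in NT3-/-Bax-/- against Bax-/- GFPon cells, from 8 (without replicate 1 of the Bax-/- cells, with 9 without replicate 2) to 18 in GFPoff cells, and from 6 to 14 (without replicate 1 of the NT3-/-Bax-/- GFPoff cells) for their interaction. They ran from 22 to 24 between NT3-/-Bax-/- sorts, 10 to 13 in Bax-/-, 11 to 13 in mlcNT3, 11 to 12 in WT, 18 to 22 at L5 and 16 to 21 at L1. Between newborn levels they ran from 0 to 2 in either sort and from 0 to 1 for the interaction. In adults they ran from 6 to 9 for level with the wheel, 6 to 8 without, and 0 to 1 for the wheel at each level (at L1, 1 without replicate 1 of the wheel DRG). Where 1 array was left in a group, its spread was assumed to be that of the other groups. With 2 or 3 arrays a group, small differences were not detectable, and at most 35 members reached a mean log2 level of 7 in a set of arrays.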

Other observations

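There were 6 probe sets annotated to several Pcdha genes at once (14 or 9 of them), which were left out of the member counts. They gave 2 calls over all comparisons in limma, 1 lower in NT3-/-Bax-/- than in Bax-/- GFPon cells (-1.03 ± 0.26, adjusted p = 0.0157, annotated to 9 genes) and 1 higher in WT GFPon than in WT GFPoff cells (0.99 ± 0.24, adjusted p = 0.0227, annotated to 14 genes).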
